A study of Mus musculus with 7 samples.

Results

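The cells described here came from primary cultures of newborn mouse hippocampus and were picked out of whole-culture single-cell libraries by genes that microglia share with other brain macrophages. A cell was kept when its UMIs (unique molecular identifiers, each standing for 1 captured RNA molecule) of Tyrobp, Fcer1g, Ctss and the complement subunits C1qa, C1qb and C1qc came to at least 20, with at least 4 of these 6 genes detected. It also had to hold fewer than 3 UMIs of the 4 border macrophage genes Mrc1, F13a1, Lyve1 and Cd163 in all. The members were thus selected on the UMIs of these 10 genes. Cells entered only if 500 genes or more were detected and mitochondrial UMIs did not exceed 10%. Of 26709 such cells, 667 were kept, and 224 others passed the same myeloid gate but carried 3 or more border macrophage UMIs; these are called border-marker cells below. Because the data went against part of the working description of the kept cells (below), they are called C1q+ Tyrobp+ cells.

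The labels name no strain, genotype or treatment for any culture. Hippocampi of postnatal day 0 mice were dissociated with trypsin, plated on coated coverslips and kept in a medium with serum and B-27 supplement, a procedure meant for neurons in which microglia come along.  Days in vitro (DIV) were the only variable, with 1 library at DIV1 and 2 libraries each at DIV3, DIV5 and DIV7. The labels do not say whether the libraries of a day came from separate cultures or litters, so p-values below reflect only how far these libraries differ, possibly for technical reasons.

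Microglia are the resident macrophages of the brain. They depend on CSF1 receptor signalling and on TGF-beta for their adult gene program, they clear debris and prune synapses through complement and phagocytic receptors, and they share many genes with the macrophages of the meninges and vessels. P2ry12, Tmem119, Sall1, Siglech and Fcrls are commonly used to tell microglia from those border macrophages, whereas Pf4, Ms4a7 and Mrc1 are used for the border cells. Microglia are known to lose part of the first set when taken out of the brain.

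In the order of days the libraries held 60 (DIV1), 62 and 63 (DIV3), 42 and 157 (DIV5) and 103 and 180 (DIV7) kept cells. Summed over these cells, a library held between 804488 and 2571932 UMIs, and the median kept cell held between 12163.5 and 23670 UMIs. No barcode belonged to kept cells of more than 1 library, and library pairs shared at most 0.883% of their barcodes. Levels below are CPM, a gene's count in such a sum scaled to the same total in every library and corrected by the trimmed mean of M-values. They refer to the 7 libraries in the order DIV1, DIV3 replicate 1, DIV3 replicate 2, DIV5 replicate 1, DIV5 replicate 2, DIV7 replicate 1 and DIV7 replicate 2. Sums over gene lists, levels in cells outside the gate and levels at the gate limits were scaled to total UMIs only. So was Siglech, which fell below the count filter.

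DIV1 and DIV3 replicate 1 stood apart from the other libraries, though correlations separated DIV3 replicate 1 less clearly. Over 5470 genes, the log2 CPM of DIV3 replicate 1 correlated with DIV3 replicate 2 at r = 0.888, while DIV3 replicate 2 correlated at 0.939 and 0.955 with the DIV5 libraries. DIV7 replicate 2, too, correlated with DIV3 replicate 2 and the DIV5 libraries at only 0.891 to 0.904, but with DIV7 replicate 1 at 0.938. DIV1 correlated with the other libraries at 0.738 to 0.859. The level of Cx3cr1 (ENSMUSG00000052336), the fractalkine receptor of microglia, was lowest in DIV1 and DIV3 replicate 1, at 148, 133, 985, 679.9, 977, 886 and 933 CPM. Of the kept cells, 48.3% and 46.8% had a Cx3cr1 UMI in DIV1 and DIV3 replicate 1, against 83.3% to 96.2% in the other 5 libraries. With every cell thinned to 2000 UMIs these shares were 28.8% and 13.6% for Cx3cr1 in those libraries and 63.4% to 82.5% in the others. In the cells outside the gate at most 2.14% had a Cx3cr1 UMI at full depth, with median depths over all filtered cells of 7142.5 to 20267 UMIs, so both low libraries were above that background.

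The other microglia markers were present at unequal levels. Trem2, the phagocytic receptor that signals through the Tyrobp adaptor, was at 337, 252, 551, 513, 338, 687 and 894 CPM, and 64.5% to 100% of kept cells had a Trem2 UMI, against at most 1.77% of cells outside the gate. Fcrls was at 30.0, 56.4, 372, 338, 461, 639.8 and 634 CPM, and Tmem119 was at 6.20, 24.0, 102, 157, 160.3, 331 and 156 CPM. For both genes DIV1 and DIV3 replicate 1 were the lowest libraries. P2ry12, the purinergic receptor by which microglia sense nucleotides, stayed at 2.07, 2.82, 12.3, 24.6, 29.6, 39.4 and 19.4 CPM, and 3.33% to 38.8% of kept cells had a P2ry12 UMI. Siglech was at 2.49 CPM in DIV1 and 0.696 CPM in DIV3 replicate 1 and had no UMI in the other 5 libraries. The transcription factor Sall1 was at 1.29 to 7.05 CPM, below the 10.8 to 15.7 CPM of the cells outside the gate.

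The description "without border macrophage markers" held for the 4 genes of the gate and not for others. Pf4 (ENSMUSG00000029373), a chemokine used as a border macrophage marker, was at 2855, 1291, 242, 494, 569, 445 and 818 CPM, and 54.8% to 90.0% of kept cells had a Pf4 UMI. In DIV3 replicate 1, 77.2% of the Pf4 UMIs lay in 7 of the 62 kept cells. The median kept cell held 2 Pf4 UMIs there and 22.5 in DIV1. Ms4a7, another such marker, was at 334, 483, 544, 434, 557, 735 and 715 CPM, in 70% to 95.2% of kept cells. Among cells outside the gate at most 3.01% had a Pf4 UMI and at most 1.27% an Ms4a7 UMI. After thinning to 2000 UMIs, 26.8% to 71.2% of kept cells still had a Pf4 UMI and 44.1% to 67.7% an Ms4a7 UMI. The 18 genes of the border macrophage list, which include the 4 of the gate, summed to 1852 to 4543 CPM in the kept cells, 2671 to 5750.2 CPM in border-marker cells and 42.0 to 393 CPM in the cells outside the gate.

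**Figure D1:**
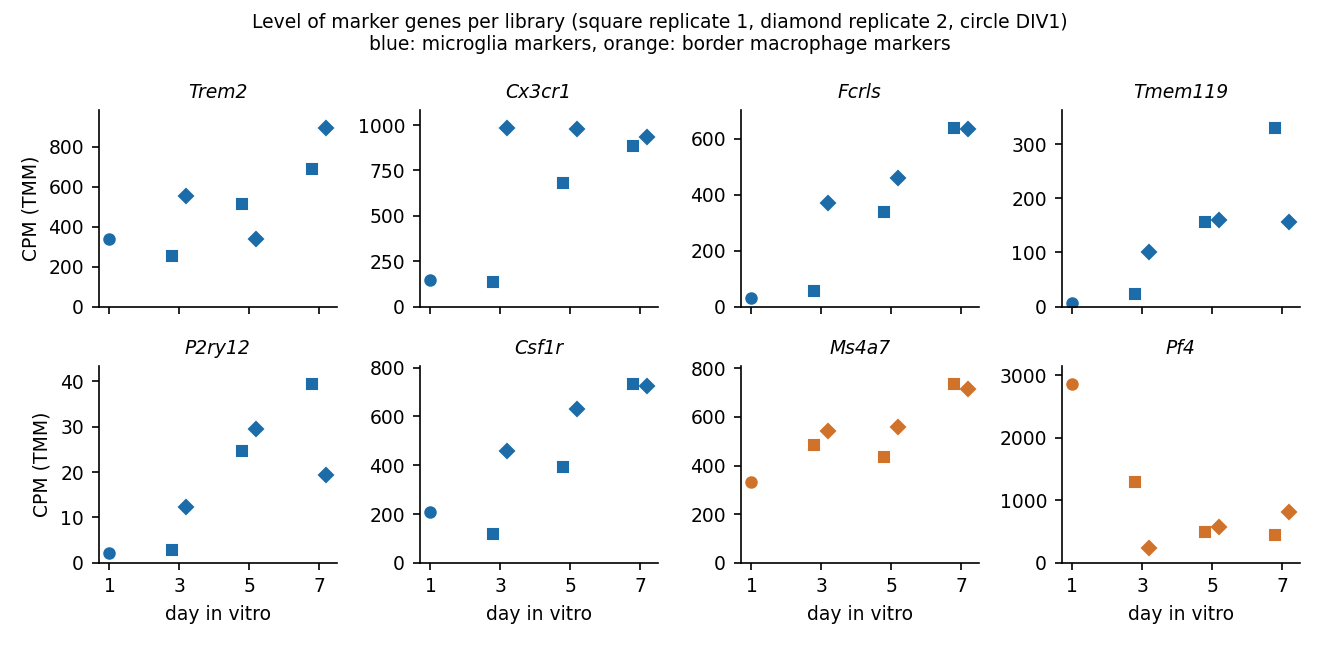
CPM (vertical axis, linear from 0) of 6 microglia markers (blue) and 2 border macrophage markers (orange) in the summed kept cells, against day in vitro, with 1 point per library. Cx3cr1 and Fcrls are lowest in DIV1 and DIV3 replicate 1, Pf4 is highest in those libraries, and P2ry12 is under 40 CPM in all 7. In DIV3 replicate 1, 77.2% of the Pf4 UMIs lie in 7 of the 62 kept cells.

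Markers of other cells were present at levels that depended on the type and the library. The 12 neutrophil markers summed to at most 81.4 CPM, the 17 monocyte and dendritic cell markers to at most 72.7 CPM and the 15 lymphocyte and mast cell markers to at most 34.2 CPM. Erythroid markers summed to 3698 CPM in DIV1 and to 2.33 to 11.02 CPM in the other 6 libraries. The 19 neuron markers summed to 1699 CPM in DIV1 and to 129 to 369 CPM elsewhere, against 1081 to 4474 CPM in the cells outside the gate. Astrocyte and radial glia markers summed to 2014.9, 3010.6, 1547, 2429, 2300, 2743 and 6294 CPM in the kept cells, below the 3918 to 38953 CPM of the cells outside the gate in every library. The 14 fibroblast and meningeal markers summed to 370 CPM in DIV1 and to 718 to 1319 CPM elsewhere, the 12 mural markers to 127 to 617 CPM with the highest sum in DIV3 replicate 1, and the 14 ciliated cell markers to 33.0 to 313 CPM with the highest sum in DIV7 replicate 1. The 14 oligodendrocyte lineage markers reached at most 118 CPM, and the 12 endothelial markers reached 102 CPM in DIV1 and at most 45.7 CPM elsewhere.

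The gate itself cut through low-expressing cells at its UMI limit. The 30 kept cells with 20 to 29 UMIs of the 6 gate genes had 88.3 CPM of Cx3cr1 and 104 CPM of Trem2, while the 52 cells just outside, with 10 to 19 UMIs, had 48.6 CPM of Cx3cr1 and 66.9 CPM of Trem2. At the border limit, the 76 kept cells with 2 border UMIs had 834 CPM of Cx3cr1 and 1817 CPM of Pf4, and the 42 cells with 3 border UMIs had 859.9 CPM of Cx3cr1 and 1220 CPM of Pf4. Cells on either side of that limit were close in Cx3cr1. The 467 kept cells with no border UMI had 599.8 CPM of Pf4 and 493 CPM of Ms4a7.

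Kept cells made up 1.46% of the filtered cells at DIV1, with an exact 95% binomial interval of 1.12% to 1.88%. At DIV3 they made up 1.21% (0.925% to 1.54%) and 2.22% (1.71% to 2.83%), at DIV5 0.977% (0.705% to 1.32%) and 4.06% (3.46% to 4.74%), and at DIV7 3.49% (2.85% to 4.21%) and 5.12% (4.42% to 5.91%). These intervals cover counting error only. By day the share was 1.46% at DIV1 (n = 1), 1.71% ± 0.717 at DIV3, 2.52% ± 2.18 at DIV5 and 4.30% ± 1.16 at DIV7 (SD, n = 2 each). Both DIV7 libraries lay above both DIV3 libraries, while the DIV5 libraries spanned nearly the whole range.

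Across the 7 libraries the share correlated with day at r = 0.708 (two-sided exact permutation p = 0.0889) and rho = 0.569 (exact permutation p = 0.190). Leaving out 2 libraries farthest from the median day gave r between 0.537 and 0.729, depending on which of the tied libraries were left out. With at least 1000 genes and at most 5% mitochondrial UMIs required of every cell, r was 0.856 (exact permutation p = 0.0159). This filter left 3753 of 4096 cells at DIV1, but 566 of 2955 and 1403 of 3513 at DIV7. Kept cells went from 60 to 59 at DIV1, and from 103 to 77 and 180 to 164 at DIV7. The higher r thus came with an uneven loss of other cells, and the share reached 13.6% and 11.7% at DIV7. Under the main filter and without DIV5 replicate 1, r was 0.863 (exact permutation p = 0.0444). For border-marker cells r was 0.658 (exact permutation p = 0.0476, adjusted 0.0889) and rho 0.844 (exact permutation p = 0.0222, adjusted 0.0444). The adjustment covered only the 2 relations of kept and of border-marker cells to day. It did not cover the other settings or both kinds of cell together. With 2 libraries a day a comparison of days allows no exact p below 0.33, so no pair of days was tested.

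**Figure D2:**
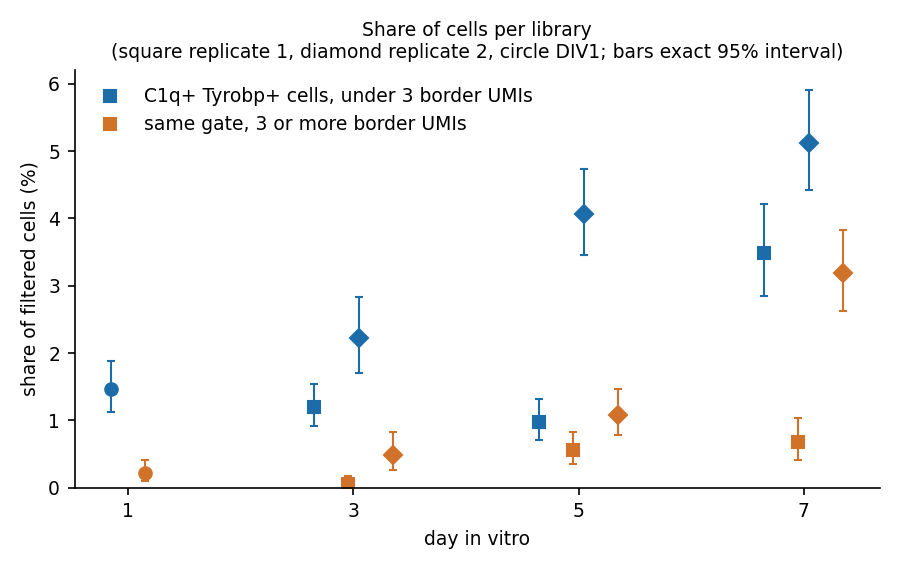
Share of filtered cells, in percent, that were kept C1q+ Tyrobp+ cells or border-marker cells, by day in vitro, with 1 point per library and exact 95% binomial intervals. The kept cells reach 3.49% and 5.12% at DIV7, against 1.21% and 2.22% at DIV3, and among the kept cells the DIV5 libraries differ most within a day.

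To find genes that changed over the week of culture, a slope per day in vitro was fitted to each of 10864 genes over all 7 libraries by the quasi-likelihood test of edgeR (Benjamini-Hochberg adjusted). Several genes of lipid transport, of the homeostatic microglial program and of lysosomes rose, and several interferon-response genes fell, by the counts below. The test passed 241 genes (2.22% of those tested), of which 144 rose (1.33%) and 97 fell (0.893%). The call rested heavily on the libraries at the ends of the week: without DIV1 the count was 1 gene, Ltc4s, and without DIV7 replicate 1 it was 14. The counts were 116, 507, 74, 128 and 151 without DIV3 replicate 1, DIV3 replicate 2, DIV5 replicate 1, DIV5 replicate 2 and DIV7 replicate 2 in turn. Scaling by total counts in place of the trimmed mean gave 146 rising and 228 falling genes. Without the top doublet scores, which took out 16 of the 60 kept cells of DIV1, 90 genes passed. Among cells with fewer than 3 Pf4 UMIs, where DIV1 held too few cells to enter, 4 genes passed. Of the 241 genes, 36 were at least 4 times higher in the cells outside the gate, 7 among those that rose and 29 among those that fell.

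Among the 22 tested genes of the homeostatic microglia list, 6 rose and none fell, against 1.33% and 0.893% of all genes tested. The median slope was 0.41 log2 units per day, against -0.001 for all genes tested. Summed over the list, the level ran from 1352 CPM in DIV3 replicate 1 to 5183 CPM in DIV7 replicate 1. Border-marker cells had a similar range, from 1357.5 to 4880 CPM in the same libraries. Ltc4s (ENSMUSG00000020377), the enzyme that makes leukotriene C4, was at 3.10, 7.05, 12.3, 28.0, 34.8, 78.8 and 121 CPM. Its level was higher in each later day's libraries than in any library of an earlier day. The slope was 0.84 ± 0.07 log2 units per day (SE; adjusted p = 0.000785), and without DIV1 it was 0.84 ± 0.09 (SE; adjusted p = 0.0317). Selplg, a ligand of selectins, was at 10.3, 24.7, 35.8, 106, 47.8, 192 and 106 CPM and rose by 0.61 ± 0.09 log2 units per day (SE; adjusted p = 0.0130).

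Others of the homeostatic genes that passed were receptors. Mertk, which binds dying cells through bridging proteins, was at 9.30, 14.8, 29.2, 24.6, 22.3, 51.6 and 76.0 CPM. P2ry13, a nucleotide receptor, had no UMI in DIV1 and was at 4.94, 4.71, 6.71, 10.5, 17.4 and 17.7 CPM in the later libraries. Tgfbr1, the signalling subunit of the TGF-beta receptor, was at 32.0, 25.4, 104, 80.5, 102, 229 and 198 CPM. All 3 had their highest values at DIV7. Fcrls (slope 0.57 ± 0.17, adjusted p = 0.112), Tmem119 (0.66 ± 0.16, adjusted p = 0.0730) and Cx3cr1 (0.34 ± 0.17, adjusted p = 0.294) did not pass.

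The most abundant of the named genes that rose was a lipid-handling gene. Apoe (ENSMUSG00000002985), the main apolipoprotein of the brain, was at 2698, 2672, 6361, 6582, 12435, 19679 and 33742 CPM. DIV7 replicate 2 was the highest library and DIV3 replicate 1 the lowest, and the slope was 0.57 ± 0.09 log2 units per day (SE; adjusted p = 0.0199). In the cells outside the gate Apoe was at 371 to 3859 CPM, also highest in DIV7 replicate 2. Apoc1, a small apolipoprotein encoded beside Apoe, was at 8.27, 141, 261, 269.5, 291, 627 and 1564 CPM (0.80 ± 0.17, adjusted p = 0.0496). Abca1, the cholesterol exporter, was at 102, 119, 181, 195, 236, 279 and 577 CPM. Of 31 lipid-handling genes tested, 4 rose (Apoe, Apoc1, Abca1 and the desaturase gene Scd2) and 2 fell (the oxysterol-sensing nuclear receptor Nr1h3 and the lipid droplet gene Hilpda), with a median slope of 0.07. Of all genes tested, 1.33% rose and 0.893% fell. The list summed to 6644 CPM in DIV3 replicate 1 and 37809 CPM in DIV7 replicate 2, its lowest and highest libraries. In border-marker cells the same libraries were lowest and highest, at 10627 and 39286 CPM. Scd2 was at 149 to 653 CPM in the kept cells and at 292 to 2594 CPM in the cells outside the gate, which had the higher level in all 7 libraries.

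Trf, the iron carrier transferrin, had the third-steepest named rise. It was at 22.7, 34.6, 126, 246, 246, 579 and 898 CPM, and its slope was 0.82 ± 0.10 log2 units per day (SE; adjusted p = 0.00855). Trf was the only 1 of 31 tested genes of iron, haem and oxidative stress that rose, against 1.33% of all genes tested. Within that list Srxn1 and Prdx1, which act in the reduction of peroxides, fell, against 0.893% of all genes tested. Srxn1 was at 338, 174, 97.1, 76.0, 62.8, 46.5 and 45.9 CPM, with every later day below every earlier one (-0.46 ± 0.06, adjusted p = 0.0101). Prdx1 was at 4491 CPM in DIV1 and 1229 and 788 CPM at DIV7 (-0.34 ± 0.07, adjusted p = 0.0327).

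Lysosomal, scavenging and antigen-presenting genes moved in small numbers, while 1.33% of all genes tested rose. Of 37 lysosomal genes tested, 4 rose, among them the cathepsins Ctsf and Ctsh and the membrane protein Lamp2. Ctsh was at 67.2, 175, 189, 348, 227, 482 and 345 CPM. Of 22 scavenger and phagocytic receptors, 3 rose, namely Mertk, the integrin subunit Itgb5 and Stab1, which is also on the border macrophage list. Stab1 was at 61.0, 80.4, 258, 249, 256, 422 and 468 CPM. H2-DMa, which loads peptides onto MHC class II, was at 1.03, 7.05, 5.65, 20.1, 24.3, 53.6 and 28.7 CPM (0.70 ± 0.10, adjusted p = 0.0130), and H2-Ab1 also rose, among 18 antigen-presentation genes. The invariant chain gene Cd74, at 9.17 to 44.5 CPM, did not pass (-0.03 ± 0.12, adjusted p = 0.933).

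Signalling genes that rose included Laptm5, a lysosomal regulator of immune receptor signalling, at 156, 275, 493, 549, 551, 1129.7 and 1037 CPM (0.42 ± 0.06, adjusted p = 0.0141). The sialic acid receptor Cd33 was at 6.20, 2.82, 20.7, 26.8, 49.4, 71.0 and 61.8 CPM. Of 32 genes of TGF-beta, CSF1 and survival signalling, 4 rose, against 1.33% of all genes tested. They were Tgfbr1, Tgfbr2, the interleukin-10 receptor subunit Il10ra and the survival gene Bcl2. The CSF1 receptor gene Csf1r, at 209.8, 118, 458, 391, 631, 732 and 726 CPM, did not pass (0.32 ± 0.10, adjusted p = 0.104). The related transcriptional repressors Bhlhe40 and Bhlhe41 were the genes that rose among 39 tested transcription factors, and Bhlhe41 was at 20.7, 27.5, 34.9, 68.2, 44.1, 96.8 and 105 CPM. Col14a1, a fibril-associated collagen, had the steepest slope of the named genes, at 1.03, 0.705, 8.48, 21.2, 32.8, 89.1 and 64.1 CPM (0.99 ± 0.13, adjusted p = 0.0130).

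Some genes of other cells rose alongside. Gfap, the astrocyte filament gene, was at 155, 243, 115, 465, 683, 818 and 2255 CPM in the kept cells (0.61 ± 0.10, adjusted p = 0.0260) and at 309.8, 1034, 955, 2725, 4389.8, 4928 and 10999 CPM in the cells outside the gate. Aqp4, Gja1 and Aldoc, also astrocyte markers, rose too, making 4 of the 18 on that list, against 1.33% of all genes tested. Their part in the other slopes was not tested.

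**Figure D3:**
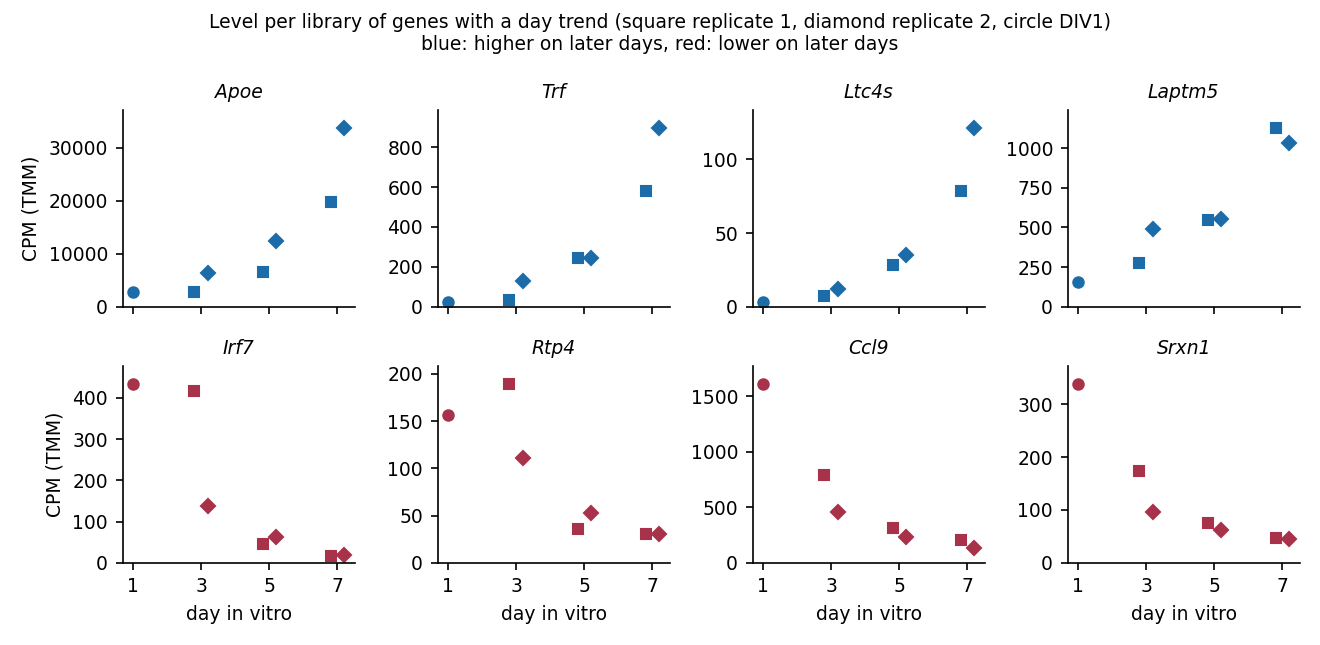
CPM (linear axis from 0) of 4 genes that rose (Apoe, Trf, Ltc4s, Laptm5, blue) and 4 that fell (Irf7, Rtp4, Ccl9, Srxn1, red) over days in vitro, with 1 point per library. Apoe reaches 19679 and 33742 CPM at DIV7, and Irf7 falls to 16.1 and 19.4 CPM there.

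Interferon-response genes are switched on by type I interferon, and many carry paired GAAA elements in their promoters. Of 39 genes of the list that were tested, 7 fell with day, against 0.893% of all genes tested, and none rose. The median slope was -0.25 log2 units per day against -0.001 for all genes, and 38 of the slopes were negative. Irf7 (ENSMUSG00000025498), the transcription factor that amplifies interferon production, was at 433, 416, 137, 44.7, 62.0, 16.1 and 19.4 CPM. Every library of a later day was below every library of an earlier day, with DIV1 and DIV3 replicate 1 close together (-0.86 ± 0.11, adjusted p = 0.0130). Rtp4 was at 156, 189, 111, 35.8, 53.0, 31.0 and 30.9 CPM (-0.48 ± 0.08, adjusted p = 0.0223). Oasl1, a relative of the RNA-sensing oligoadenylate synthetases, was at 105, 77.6, 9.42, 2.24, 8.50, 0.646 and 3.09 CPM (-1.01 ± 0.18, adjusted p = 0.0353). The other 4 were Slfn2, Oasl2, Phf11d and the exonuclease gene Isg20.

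Summed over the 40 genes of the list found in the files, the level was 6858, 5791.5, 2410.5, 1679, 1918, 2291 and 2291 CPM in the kept cells. DIV1 and DIV3 replicate 1 were high, and the other 5 libraries lay within 1679 to 2410.5 CPM, so the step lay between those 2 libraries and the rest. In the cells outside the gate the sum was 929, 3934, 867, 1420, 687, 1213 and 828 CPM, also highest in DIV3 replicate 1. The sum in kept cells was above that in the cells outside the gate in all 7 libraries. Border-marker cells had a similar course, at 9805, 6330, 2118, 2079.5, 1820, 2848.5 and 2374 CPM. Their sums in DIV1 and DIV3 replicate 1 came from only 9 and 3 cells. Isg15, a ubiquitin-like modifier, was at 271, 352, 34.9, 32.4, 65.2, 10.98 and 9.28 CPM and did not pass (-0.87 ± 0.20, adjusted p = 0.0626). Ifit3, also on the list, was at 92.0, 78.3, 9.42, 2.24, 17.8, 6.46 and 22.97 CPM and did not pass (-0.46 ± 0.18, adjusted p = 0.196). Ifi211, a member of the DNA-sensing Ifi200 family that was not on the list, was at 61.0, 72.0, 42.4, 23.5, 22.3, 13.6 and 7.51 CPM and fell (-0.49 ± 0.08, adjusted p = 0.0225).

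The promoters of 3 of these genes are shown because they hold the paired element, written GAAANNGAAA or, on the other strand, TTTCNNTTTC; N is any base and overlapping copies were counted. Each is 300 bases, 5′ to 3′ on the gene's strand, from 250 bases before to 50 after the start of the RefSeq gene on the mouse build GRCm38.p6, with the copies in capitals. Isg15 (chr4:156200769-156201068, minus strand) held 3 overlapping copies at positions 173 to 194, Ifit3 (chr19:34583279-34583578, plus strand) held 2 copies between positions 95 and 138, and Ifi211 (chr1:173912997-173913296, minus strand) held 1 copy at positions 214 to 223, counting from 1 at the 5′ end.
Isg15: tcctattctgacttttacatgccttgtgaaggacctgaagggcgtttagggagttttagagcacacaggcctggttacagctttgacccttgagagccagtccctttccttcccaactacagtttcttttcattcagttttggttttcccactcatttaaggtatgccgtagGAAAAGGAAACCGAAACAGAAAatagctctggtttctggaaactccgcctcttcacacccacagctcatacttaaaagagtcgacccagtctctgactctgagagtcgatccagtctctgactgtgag
Ifit3: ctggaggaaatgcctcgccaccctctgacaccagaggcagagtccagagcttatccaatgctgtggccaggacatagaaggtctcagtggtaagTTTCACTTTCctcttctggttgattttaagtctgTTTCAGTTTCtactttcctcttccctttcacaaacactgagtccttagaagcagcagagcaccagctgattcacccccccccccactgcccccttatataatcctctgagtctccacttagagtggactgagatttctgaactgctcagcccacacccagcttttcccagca
Ifi211: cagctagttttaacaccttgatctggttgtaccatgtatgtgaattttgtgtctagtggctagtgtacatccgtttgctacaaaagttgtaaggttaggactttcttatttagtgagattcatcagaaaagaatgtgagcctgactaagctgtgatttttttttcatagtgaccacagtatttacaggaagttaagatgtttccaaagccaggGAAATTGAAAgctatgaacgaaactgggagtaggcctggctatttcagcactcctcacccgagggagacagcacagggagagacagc
The element stood in 1131 of 32851 RefSeq windows of this length (3.44%) and in 14 of the 31 interferon-list genes that had a window. Of the 7 list genes that fell, 6 had a window, and none held these letters in it. A match is a description of the letters and does not show binding.

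Cytokine genes fell where they passed. Ccl9, a chemokine, was at 1607, 787, 461, 318, 233, 203 and 136 CPM, with every library of a later day below every library of an earlier day (-0.53 ± 0.06, adjusted p = 0.00660). Il1rn, the antagonist of the interleukin-1 receptor, was at 55.8, 17.6, 35.8, 17.9, 9.72, 9.68 and 6.63 CPM (-0.46 ± 0.08, adjusted p = 0.0223). These were the 2 genes that fell among 24 cytokines and chemokines, against 0.893% of all genes tested, and none rose. Il1b, the inflammatory cytokine itself, ranged from no UMI in DIV5 replicate 1 to 119 CPM in DIV3 replicate 1 and did not pass (-0.46 ± 0.27, adjusted p = 0.372). In DIV3 replicate 1, 139 of the 169 Il1b UMIs came from 1 cell. The chemokine gene Ccl3, at 281 to 1572 CPM, did not pass either (0.04 ± 0.15, adjusted p = 0.922).

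Of the other genes that fell, Akr1b8, an aldo-keto reductase gene, was at 366, 71.2, 35.8, 32.4, 13.4, 10.3 and 15.0 CPM (-0.77 ± 0.10, adjusted p = 0.0131). Fcgr1, the high-affinity receptor for immunoglobulin G, was at 202, 154, 131, 82.8, 112, 67.1 and 75.5 CPM (-0.25 ± 0.05, adjusted p = 0.0322). Fdps and Fdft1, which act in the synthesis of cholesterol, fell among 22 genes of that pathway, with a median slope of -0.19. Of all genes tested, 0.893% fell. Fdps was at 16.3 to 87.8 CPM in the kept cells and at 55.3 to 399.7 CPM in the cells outside the gate. The neuronal noncoding RNA Snhg11 also fell, and it was at 185 CPM in DIV1 and at 0 to 3.64 CPM in the other 6 libraries.

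Several groups did not move past the test. Of 27 tested genes of the disease-associated microglia list, Apoe rose and no other passed, where 1.33% of all genes tested rose. Spp1, the matrix protein osteopontin, was at 959, 69.1, 916, 688, 138, 435 and 1009 CPM, and the 2 libraries of DIV3 differed the most (-0.03 ± 0.18, adjusted p = 0.944). In DIV1, 94.9% of the Spp1 UMIs lay in 6 of the 60 kept cells. Lpl, at 225 to 1189 CPM, and Lgals3, at 367 to 2578 CPM, did not pass (adjusted p = 0.157 and 0.178). None of 17 complement genes, 29 NF-kB response genes, 34 immediate early and dissociation stress genes, 25 innate sensor genes or 62 ribosomal protein genes passed in either direction, against 2.22% of all genes tested. C1qa, C1qb and C1qc of the complement list, Tyrobp of the disease-associated list and Ctss of the lysosomal list were used to choose the cells, so nothing is read from their slopes.

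To compare programs per cell, each cell was thinned to 2000 UMIs and counted when it held at least 3 genes of a list. For interferon-response genes this held for 93.2%, 96.6%, 63.5%, 56.1%, 39.2%, 50.5% and 41.9% of kept cells, and for 11.1%, 64.4%, 10.4%, 25.1%, 7.14%, 21.9% and 9.88% of the cells outside the gate. The kept cells had the higher share in every library, and in both kinds of cell DIV3 replicate 1 had the highest. For G2 and mitosis genes it held for none of 59 kept cells in DIV1 (exact 95% upper limit 6.06%) and for 16.9%, 41.3%, 56.1%, 51.0%, 41.4% and 14.5% in the later libraries. The cells outside the gate had 7.08%, 35.3%, 34.3%, 30.5%, 14.1%, 21.8% and 11.3%. The mitotic share in kept cells was thus highest at DIV5 and lower than in the other cells at DIV1 and in DIV3 replicate 1.

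**Figure D4:**
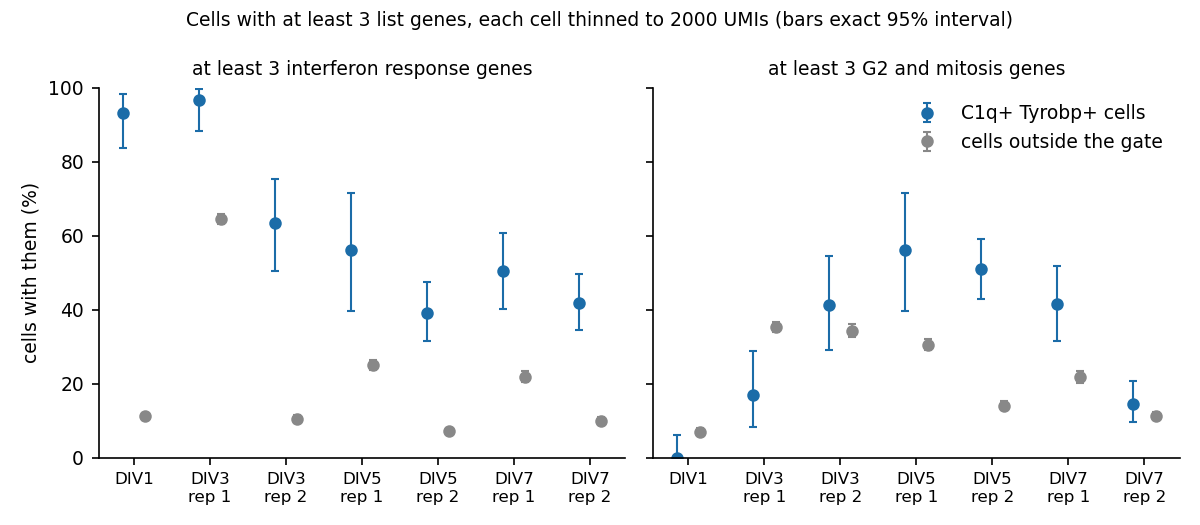
Percent of cells, each thinned to 2000 UMIs, with at least 3 interferon-response genes or at least 3 G2 and mitosis genes, by day in vitro, for kept cells and cells outside the gate, with exact 95% binomial intervals. Interferon shares of kept cells are 93.2% and 96.6% in DIV1 and DIV3 replicate 1, and mitotic shares peak at 56.1% and 51.0% at DIV5.

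Mitotic genes followed the same course in the sums. Top2a, the topoisomerase of dividing cells, was at 17.6, 55.0, 153, 274, 242, 185 and 77.8 CPM, and Mki67 was at 4.13, 19.0, 58.4, 99.5, 95.2, 54.2 and 26.9 CPM. Neither gene passed the linear slope (adjusted p = 0.396 and 0.511). None of the 41 G2 and mitosis genes or of the 39 S phase genes did, against 2.22% of all genes tested. A linear slope cannot register a peak at DIV5, so nothing is read from these counts.

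Comparisons of single days had only 3 residual degrees of freedom. Between DIV7 and DIV3 no gene passed the Benjamini-Hochberg adjusted edgeR test (0% of 10864), while 1721 genes (15.8%) had an unadjusted p under 0.05 and DESeq2 passed 100. Ltc4s had the lowest adjusted p, 0.107, at 78.8 and 121 CPM at DIV7 against 7.05 and 12.3 CPM at DIV3, a log2 difference of 3.40 ± 0.40 (SE). Without DIV3 replicate 2 the count was 323, and without DIV7 replicate 1 it was 2. The median log2 difference was 1.41 over the 22 homeostatic genes and -0.86 over the 39 interferon genes, against 0.02 over all genes. Between DIV5 and DIV3 no gene passed (0%), with 423 (3.89%) under an unadjusted p of 0.05 and 1 by DESeq2, and without DIV3 replicate 2 the count was 13. Between DIV7 and DIV5 no gene passed (0%), with 924 (8.51%) under an unadjusted p of 0.05 and 6 by DESeq2.

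Between DIV3 and DIV1, 11 genes passed (0.101%), 3 higher (0.0276%) and 8 lower (0.0736%) at DIV3; the single DIV1 library was assumed to vary like the others, so the errors and p-values of this step hold no spread among DIV1 libraries. The DIV1 library also had the highest neuron and erythroid sums given above, and their part in these differences was not tested. Of its 60 kept cells, 16 were among the top doublet scores, against 12 of 62 and 6 of 63 at DIV3. Leaving out the top-scored cells lowered the DIV1 sum from 804488 to 446736 UMIs. Scaled by total counts, 1 was higher and 10 were lower, and in cells with a Cx3cr1 UMI none passed. Without the top doublet scores 3 passed, all of them lower at DIV3. Without DIV3 replicate 1 the count was 51, without DIV3 replicate 2 it was 7, without either DIV5 library 5, and without either DIV7 library 22. Cd52, a small surface glycoprotein of leukocytes, was at 1459.6 and 1347 CPM at DIV3 against 98.2 CPM at DIV1 (log2 difference 3.84 ± 0.47, adjusted p = 0.0261). Cybb, the catalytic subunit of the phagocyte NADPH oxidase, was at 366 and 357 CPM at DIV3 against 50.6 CPM at DIV1 (2.83 ± 0.39, adjusted p = 0.0377). Tmem160 was the third, at 277 and 235 CPM at DIV3 against 37.2 CPM at DIV1. Cd52 and Cybb kept these higher levels at DIV5 and DIV7, between 1125 and 2153 CPM and between 304 and 480.2 CPM. The genes that fell included Hbb-bs, a haemoglobin gene, and the neuronal genes Snhg11 and Reln. Reln was at 0 and 0.942 CPM at DIV3 against 146 CPM at DIV1, and at 81.7 CPM in the DIV1 cells outside the gate.

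Within a library the kept cells were not uniform. In DIV1 the 31 cells without a Cx3cr1 UMI had 6713 CPM of Pf4 and 4701 CPM of Lgals3, against 962 CPM of Pf4 and 1895 CPM of Lgals3 in the 29 cells with one, here scaled to total UMIs. The cells without Cx3cr1 in that library were shallower, with a median of 9565 against 14989 UMIs. In DIV3 replicate 1 the 33 cells without a Cx3cr1 UMI had 1454 CPM of Pf4, against 1113 CPM of Pf4 in the 29 cells with one, with median depths of 18307 and 27583 UMIs. In that library 1 cell held 499 of the 1830 Pf4 UMIs, so the direction of this difference may rest on 1 cell. In the 5 later libraries at most 13 cells had no Cx3cr1 UMI. These subsets were formed from the measured values and were not tested.

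The most similar cells of the series were the border-marker cells, and both kinds held at least 20 cells in the DIV5 and DIV7 libraries. The kept cells had higher levels of some microglial genes such as Olfml3 and Selplg, and lower levels of Pf4, Arg1, Cd38 and Trf, while most microglia markers did not differ past the test. Of 20 homeostatic genes tested, 3 were higher, Olfml3 and Selplg among them, and 1 was lower (Ltc4s) in the kept cells, with a median log2 difference of -0.03, against 0.00 over all genes. With the library as a block, the adjusted edgeR test passed 48 of 8257 genes outside the gate (0.581%), 26 higher (0.315%) and 22 lower (0.266%) in the kept cells. Without the library as a block it passed none, and without DIV5 replicate 2 it passed 18. Of the 26 higher genes, 10 were at least 4 times higher in the cells outside the gate. The kept cells had median depths of 21522, 15506, 15730 and 12163.5 UMIs, against 22236.5, 14703.5, 19503.5 and 12245.5 UMIs in the border-marker cells of DIV5 replicates 1 and 2 and DIV7 replicates 1 and 2, the order used below. With every cell thinned to 2000 UMIs the test passed 6 genes. Removing the top doublet scores left 19 border-marker cells in DIV5 replicate 1 and 18 in DIV7 replicate 1, under the 20 required. That fit therefore used only DIV5 replicate 2 and DIV7 replicate 2, so both the cells and the libraries changed. It passed 35 genes, of which 14 were among the 48. Of the 20 named genes that had passed, 12 lost the call, Olfml3, Selplg, Cd14, Fabp5 and Fcna among them. Cd34, Bcl2a1a, Pf4, Cd38, Arg1, Trf and Ltc4s passed there too.

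Olfml3, a secreted protein of microglia, was at 104, 168, 133 and 182 CPM in the kept cells against 53.9, 126, 72.3 and 117 CPM in the border-marker cells (log2 difference 0.67 ± 0.13, adjusted p = 0.0103). Cd34, a surface sialomucin, was at 43.3, 31.3, 142 and 48.3 CPM in the kept cells against 3.59, 6.47, 18.1 and 18.2 CPM in the border-marker cells, the largest difference of the named higher genes (2.16 ± 0.26, adjusted p = 9.3e-05). Both were higher in the kept cells of each of the 4 libraries. Cd14, the co-receptor for bacterial lipopolysaccharide (0.68 ± 0.14, adjusted p = 0.0168), Selplg (0.65 ± 0.14, adjusted p = 0.0186) and the fatty acid binding protein gene Fabp5 (0.88 ± 0.13, adjusted p = 0.00149) were also higher. Bcl2a1a was higher too (1.28 ± 0.19, adjusted p = 0.00102), but it has near-identical copies in the genome and its count is uncertain.

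Pf4 was at 491, 563, 437 and 792 CPM in the kept cells against 933, 974, 694 and 1843 CPM in the border-marker cells (log2 difference -0.91 ± 0.08, adjusted p = 1.04e-06). Pf4 was thus lower in the kept cells of every library, though far above its level outside the gate. Cd38, an enzyme that consumes NAD, was at 37.8, 83.8, 32.3 and 75.6 CPM against 113, 194, 98.1 and 147 CPM (-1.25 ± 0.13, adjusted p = 8.37e-06). Arg1, arginase, was at 12.2, 4.81, 1.27 and 11.97 CPM against 52.1, 11.3, 2.58 and 76.9 CPM (-2.22 ± 0.28, adjusted p = 9.3e-05). The secreted ficolin gene Fcna (-1.41 ± 0.28, adjusted p = 0.0127) and the Fc receptor gene Fcgr3 (-0.55 ± 0.11, adjusted p = 0.0123) were lower as well. Trf (-0.77 ± 0.09, adjusted p = 1.78e-05) and Ltc4s (-0.75 ± 0.15, adjusted p = 0.0168), which rose with day in the kept cells, were lower in them than in the border-marker cells.

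Several markers did not pass between the 2 kinds of cell. Cx3cr1 differed by -0.15 ± 0.07 log2 units (adjusted p = 0.647), Ms4a7 by -0.22 ± 0.08 (adjusted p = 0.440), Fcrls by 0.20 ± 0.17 (adjusted p = 0.890), Tmem119 by 0.06 ± 0.18 (adjusted p = 0.995) and Trem2 by -0.03 ± 0.09 (adjusted p = 0.995). The signs of Fcrls, Tmem119 and Trem2 turned under other settings given in the closing section. Of the 19 neuron markers, 5 were tested and 3 were higher in the kept cells against 0.315% of all genes tested. Stmn2 was at 17.8, 65.7, 6.98 and 66.7 CPM in the kept cells against 16.2, 14.6, 7.74 and 21.0 CPM in the border-marker cells (1.48 ± 0.27, adjusted p = 0.0105), higher in the kept cells of 3 of the 4 libraries, and Gap43 and Tubb3 also passed. The neuron list summed to 129 to 281 CPM in the kept cells and 68.5 to 124 CPM in the border-marker cells of these libraries, and its part in the other differences was not tested.

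**Figure D5:**
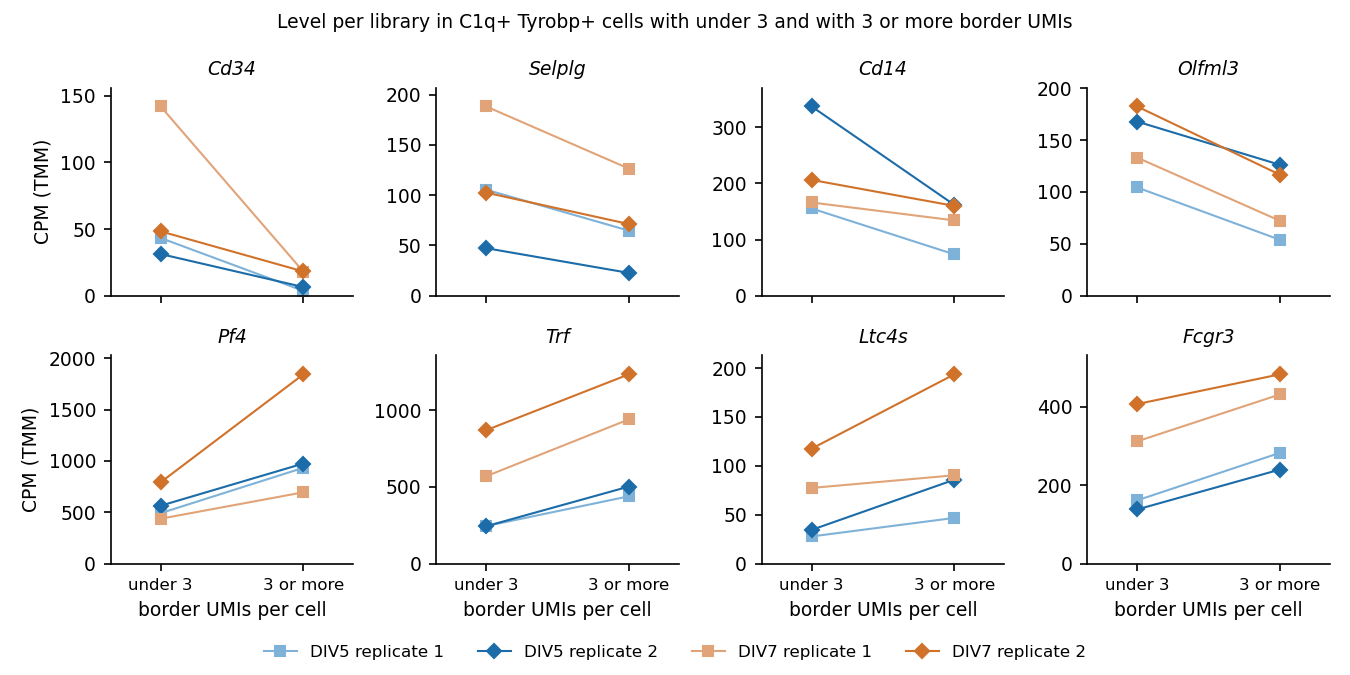
CPM (linear axis from 0) of 8 genes in the kept cells (left of each pair) and the border-marker cells (right) of the same library, joined by a line, for the 4 libraries of DIV5 and DIV7. Olfml3 and Selplg lie higher in the kept cells of all 4 libraries and Pf4 and Trf lie lower in them.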

How the data were processed

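Cultured newborn mouse hippocampal cells were profiled in 7 droplet single-cell libraries. The deposited matrices hold whole-number UMI counts for 31053 genes per cell; the submitters' processing notes name Cell Ranger 4.0.0 and the mouse build mm9. Other upstream steps are not given in the sources used here, and 71 gene rows repeat a symbol. Files per library were named by the labels.

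Counts of the kept cells were summed per library and tested with edgeR 4.0.16 (robust quasi-likelihood, trimmed-mean scaling, expression filter by day, Benjamini-Hochberg adjustment at 0.05) in R 4.3.3. A mean per day left 3 residual degrees of freedom, and a slope per day left 5. Kept and border-marker cells were compared with the library as a block. DESeq2 1.42.0 was an alternative. Exact permutation and binomial tests used scipy 1.17.1. The code was tested on simulated counts. Doublets were not removed in the main result. An alternative removed the top doublet scores, expecting 0.8% doublets per 1000 cells. In library order it took out 16 of 60, 12 of 62, 6 of 63, 7 of 42, 14 of 157, 14 of 103 and 13 of 180 kept cells.

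The members and gene lists were chosen with earlier results of these data known. Named genes were textbook markers plus, per comparison, the largest rises and falls past the test (10 of each, 5 for single-day steps) averaging 20 CPM or more, with non-overlapping groups, a matching rank order over days, or the same sign in every library. Predicted, haemoglobin, ribosomal and mitochondrial genes, and genes at least 4 times higher in other cells, were left out. List members that passed were named as well. Promoter sequences are RefSeq's, on GRCm38.p6; no coordinates were taken from the counts. Some genes are not reported here.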

Additional observations from a re-analysis of the deposited data

How the results depend on the processing

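Counts of genes past the test moved with the processing. Between DIV7 and DIV3 the count of 0 became 662 with no low-count filter, 100 with DESeq2, 2 with the replicate number as a block (replicate block), 4 with cells thinned to 2000 UMIs and 4 in cells with Pf4 under 3 UMIs; leaving out 1 library gave 0 to 323. Between DIV5 and DIV3 the count of 0 became 72 with no filter and 1 with DESeq2, and leaving out 1 library gave 0 to 13. Between DIV7 and DIV5 the count of 0 became 161 with no filter and 6 with DESeq2. Between DIV3 and DIV1 the count of 11 became 566 with no filter, 88 with DESeq2, 31 with the block, 4 in cells with no border UMI, 4 with at least 1000 genes and 5% mitochondrial UMIs, 3 without the top doublet scores, and 0 with gate genes at 0.5% of UMIs or with a Cx3cr1 UMI; leaving out 1 library gave 5 to 51. For the slope the count of 241 became 374 with total-count scaling, 522 with no filter, 571 with DESeq2, 108 with the block, 46 with no border UMI, 68 with the stricter cell filter, 90 without top doublet scores, 126 thinned, 88 with a Cx3cr1 UMI and 4 with Pf4 under 3 UMIs, where DIV1 was left out; leaving out 1 library gave 1 (without DIV1) or 14 (without DIV7 replicate 1) to 507. Against border-marker cells the count of 48 became 145 with no filter, 21 with DESeq2, 6 thinned and 0 without the library block. It became 35 without top doublet scores (14 of them shared with the 48), in DIV5 replicate 2 and DIV7 replicate 2 only. With gate genes at 0.5% of UMIs it became 20, and DIV7 replicate 1 dropped out with 19 border-marker cells. With Pf4 under 3 UMIs it became 210, but that cut was put on the kept cells only, so the 2 kinds were no longer chosen alike. Leaving out 1 library gave 18 to 47. The correlation of the share with day, 0.708, became 0.856 with the stricter cell filter, which removed other cells unevenly over days. Leaving out 1 library gave 0.574 to 0.863.

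Signs turned only among differences from border-marker cells that had not passed: Fcrls (-0.14 without top doublet scores, -0.0915 thinned, -0.0766 with Pf4 under 3 UMIs), Tmem119 (-0.11 with the stricter filter, -0.22 without top doublet scores, -0.12 with gate genes at 0.5%, -0.24 with Pf4 under 3 UMIs, -0.16 without DIV7 replicate 1) and Trem2 (0.0138 with no filter, 0.00541 with a gate of 40 UMIs, 0.0049 with the stricter filter, 0.13 without top doublet scores, 0.27 thinned, 0.00755 with gate genes at 0.5%, 0.0418 without DIV5 replicate 1). Several of these settings share a loss of libraries. The stricter filter and gate genes at 0.5% left 16 and 19 border-marker cells in DIV7 replicate 1, under the 20 required, so those fits lacked it. The fit without top doublet scores lacked DIV5 replicate 1 and DIV7 replicate 1. The Pf4 cut was put on the kept cells only. The cause of the sign changes was not tested. The alternatives on the share of gate genes, Cx3cr1 and Pf4 were chosen after seeing the data. The labels do not say that replicate numbers pair libraries, and differences between replicates of 2 days correlated at 0.130, -0.00047 and 0.290, so the block is given only here. Of 52 named genes that passed the slope, 49 lost the call without DIV1, 48 without DIV7 replicate 1 and 20 with the block. Of 20 named genes that passed against border-marker cells, 12 lost the call without top doublet scores (DIV5 replicate 2 and DIV7 replicate 2 only), 11 with DESeq2 and 9 thinned. The 42 to 180 kept cells per library limit what low genes can show.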
